A study of Mus musculus with 31 samples.

Results

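The circadian clock genes are 10 of the 23509 genes counted in mouse kidney: Clock, Arntl, Per1, Per2, Per3, Cry1, Cry2, Nr1d1, Nr1d2 and Dbp. They were chosen by symbol as the core loop of the mammalian clock, and all 10 were among the 15185 genes that passed the filter on low counts. RNA was sequenced from whole kidneys of 31 mice, all taken at 30 weeks of age. Of these, 12 were Pcy/CD1 mice injected subcutaneously with PBS. Another 14 were Pcy/CD1 mice injected with RGLS4326 at 25 mg/kg once a month. Both groups were injected from 5 to 30 weeks of age, and the study describes its Pcy/CD1 mice as male. The other 5 were untreated male WT CD1 mice. Pcy/CD1 mice carry the pcy mutation and develop slowly progressing polycystic kidney disease, and RGLS4326 is a short chemically modified oligonucleotide complementary to the seed of the microRNA miR-17. The labels of the PBS group state weekly dosing while the protocol text reads as monthly. WT mice received no injection, so the effect of the pcy mutation, of the colony and of injection cannot be told apart in any comparison with WT.

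The circadian clock is a loop of transcription factors that runs in nearly every cell. CLOCK and ARNTL (also called BMAL1) act as a pair that binds E-box sequences and activates the Per and Cry genes, whose proteins then inhibit the pair. The same pair activates Nr1d1 and Nr1d2, which encode the nuclear receptors REV-ERBα and REV-ERBβ that repress Arntl, and Dbp, which encodes an activator acting through D-box sequences. In kidney, as in other tissues, these transcripts rise and fall over the day, with Arntl high when Dbp is low, and the kidney clock is known for its part in daily rhythms of sodium transport. The hour at which each kidney was taken is not given in the sources used here, and its part in the results was not tested.

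Clock belongs to the miR-17 signature of the study, a set of target genes defined in cultured cells rather than in these kidneys. RGLS4326 was designed against the miR-17 family, which shares this seed. On chromosome X, miR-20b-5p and miR-106a-5p hold the seed as well and are not shown. Those on chromosomes 14 and 5 are shown with the seed (bases 2 to 8) in capitals, from RefSeq on GRCm38.p6:
mmu-miR-17-5p: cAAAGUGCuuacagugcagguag
mmu-miR-20a-5p: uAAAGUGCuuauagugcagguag
mmu-miR-93-5p: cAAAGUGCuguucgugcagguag
mmu-miR-106b-5p: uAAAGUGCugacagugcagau
The complement of this seed, GCACTTT, was searched on the transcript strand of the longest annotated 3′UTR of each gene. It occurred in 2 of the 10 clock genes, 4 times in Clock and once in Cry2, whereas 11.7% of 21028 genes with a 3′UTR held it at least once. All 5 matches lie in the last exon, exon 23 of 23 in Clock and exon 12 of 12 in Cry2, and are shown with the match in capitals, a following A being in capitals where it makes an 8-base match. In GRCm38 the letters GCACTTT lie on the minus strand at chr5:76215674-76215680, chr5:76212852-76212858, chr5:76211563-76211569 and chr5:76210762-76210768 for Clock and at chr2:92403742-92403748 for Cry2:
Clock site at 76215674: aaacattttagGCACTTTtttaacattct
Clock site at 76212852: aaaggtaataaGCACTTTAttgcaattatt
Clock site at 76211563: ctgattcatggGCACTTTttatacattcg
Clock site at 76210762: gctccagtataGCACTTTcatattcaccc
Cry2 site at 92403742: gcaggcaagaaGCACTTTAcagagttccct
The 8-base form was found in 736 genes (3.5%). The 3′UTR searched is 6831 bases long in Clock and 2177 bases in Cry2, and the other 8 members, with 3′UTRs of 288 to 2631 bases, held no match to these letters.

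Promoter windows from 250 bases before to 50 after each RefSeq transcription start (GRCm38.p6) matched 9 members, and Per2 was not matched. They were searched on both strands for the E-box CACGTG, the related CACGTT, the D-boxes TTATGTAA and TTACGTAA, and the ROR response element, the site shared by REV-ERB and ROR receptors. The letters that bear on the loop are shown 5′ to 3′ on the gene's strand with the motif in capitals:
Per1 E-box: gcacccaagtcCACGTGcagggatgtgt
Cry1 E-box: gtgccggtggtCACGTGgggtgcatgcc
Per3 D-box, distal: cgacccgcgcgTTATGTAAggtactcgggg
Per3 D-box, proximal: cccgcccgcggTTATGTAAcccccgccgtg
Arntl ROR response element: agggaaggcagAAAGTAGGTCAgggacgga
The motif positions are chr11:69098783-69098788 on the plus strand for Per1, chr10:85185109-85185114 on the minus strand for Cry1, chr4:151044863-151044870 and chr4:151044816-151044823 on the minus strand for Per3, and chr7:113207537-113207547 on the plus strand for Arntl. Of all 32851 windows, 7.15% held CACGTG, 0.938% held TTATGTAA, 0.119% held TTACGTAA and 0.384% held the ROR response element. CACGTT was present on the opposite strand in Cry1, Cry2 and Nr1d1, and in 4.69% of all windows. TTACGTAA was found in no member. These matches describe the letters in the windows only.

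Total gene counts ranged from 14892524 to 27459962 per kidney (median 19961466). Values are given as CPM, the deposited counts scaled to a common sequencing depth with TMM library sizes. Sample numbers in the names of the deposited libraries start again inside every group. These restarts define 3 series, called index series here, holding 4, 4 and 4 PBS, 4, 5 and 5 RGLS4326 and 2, 2 and 1 WT kidneys. Series were numbered inside each group. That the same series number stands for the same batch in every group was assumed and not tested. WT mice 3 and 4 were the most alike of all pairs in a group (chi-square per gene 2.69, next pair 4.91), but they differed by more than sampling noise and were counted as 2 mice. RGLS4326-treated mouse 9 stood apart, with Lcn2, which encodes the tubular injury marker Ngal, at 2.76 CPM against 205 CPM or more in every PBS-treated mouse, so results are also given without it where it matters.

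Compared per kilobase of exon, Dbp was the most abundant member in WT kidney at 74.9 ± 18.8 CPM per kb (SD, n = 5), followed by Nr1d1 at 35.0 ± 9.69, Nr1d2 at 33.1 ± 1.45, Per3 at 13.1 ± 1.29, Per2 at 12.4 ± 3.09, Cry2 at 9.21 ± 0.425, Per1 at 7.20 ± 0.416, Clock at 4.85 ± 0.315, Cry1 at 1.90 ± 0.506 and Arntl at 1.73 ± 0.607 CPM per kb. In this order the ranges of the 5 WT mice overlapped between Nr1d1 and Nr1d2, between Per3 and Per2, between Per2 and Cry2 and between Cry1 and Arntl, and the other neighbors did not overlap. With PBS, Nr1d1 at 29.6 ± 9.29 and Dbp at 28.2 ± 14.4 CPM per kb (SD, n = 12) stood first with overlapping ranges, and Arntl at 5.50 ± 1.87 CPM per kb was sixth. With RGLS4326, Dbp at 41.7 ± 27.7 CPM per kb (SD, n = 14) was again first and Arntl at 4.38 ± 2.40 CPM per kb ninth. Every pair of neighbors in the RGLS4326 order overlapped, and with PBS all did except Nr1d2, at 9.35 CPM per kb or more, and Cry2, at 8.33 CPM per kb or less.

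The comparison of PBS-treated Pcy/CD1 with WT kidneys asks how the clock genes stood in polycystic kidney. Arntl was higher and Per1, Per2, Per3, Cry2, Nr1d2, Dbp and Clock were lower, so that 8 of 10 members had an adjusted p under 0.05 by the edgeR quasi-likelihood test, adjusted over all genes by the Benjamini-Hochberg method. The background in this comparison is 74.3% of all genes (37.7% higher and 36.6% lower), and the share of members called lies near it. By direction, 1 member was higher and 7 lower, and the log2 fold change was above 0 for 2 members and 50.7% of all genes. The median log2 fold change was −0.54 over the members against 0.01 over all genes. With the additional threshold of an absolute log2 fold change over 0.5, 7 members and 42.4% of all genes were called. In whole kidney, fewer cells of a type and less RNA per cell cannot be told apart.

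Of the activators, Arntl read 2.713, 4.098, 6.921, 6.115 and 6.925 CPM in WT mice 1 to 5. With PBS it ranged from 8.44 to 26.2 CPM (median 17.6), so that every PBS-treated mouse lay above every WT mouse. The difference was 3.17-fold (log2 fold change 1.66, standard error 0.40, adjusted p = 0.00044). Clock, the partner of Arntl, went the other way, from 48.2 ± 3.13 CPM (SD, n = 5) to 37.5 ± 7.56 CPM (SD, n = 12). The log2 fold change of Clock was −0.36 (standard error 0.13, adjusted p = 0.0157), and the groups overlapped. The Clock call depended on scaling, with −0.24 and adjusted p = 0.0882 under upper-quartile scaling, where the median of all genes moved to 0.13. Scaled to total counts alone, where that median moved to 0.38, Clock stood at −0.0041 (adjusted p = 0.978).

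The Per genes, which encode the period inhibitors, were all lower. Per2 read 74.43, 80.96, 81.99, 83.13 and 40.59 CPM in the WT mice and 17.98 to 48.3 CPM (median 23.0) with PBS. Only WT mouse 5 lay within the PBS range. The difference was 2.82-fold (log2 fold change −1.49, standard error 0.30, adjusted p = 5.2e-05), and −1.64 without WT mouse 5. Per3 read 90.12, 79.59, 76.79, 78.11 and 68.47 CPM in WT and 21.5 to 58.8 CPM (median 35.4) with PBS, with no overlap. It was 2.25-fold lower (log2 fold change −1.17, standard error 0.25, adjusted p = 0.00012). Per1, a Per gene inducible by glucocorticoids, was 40.5 ± 2.34 CPM in WT (SD, n = 5) and 27.5 ± 8.75 CPM with PBS (SD, n = 12). Per1 had a log2 fold change of −0.56 ± 0.20 (standard error in the fit, adjusted p = 0.0145), and the groups overlapped, PBS-treated mice 7 (45.2 CPM) and 11 (38.3 CPM) lying above WT mouse 5 (36.7 CPM).

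Of the cryptochromes, which close the loop by inhibiting CLOCK and ARNTL, Cry2 was lower and Cry1 was not called. Cry2 read 42.35, 40.03, 40.82, 39.42 and 37.33 CPM in WT and 23.2 to 36.2 CPM (median 26.5) with PBS, with no overlap. Cry2 had a log2 fold change of −0.53 (adjusted p = 0.00058, standard error 0.13). Cry1 was low in both groups, at 5.76 ± 1.53 CPM in WT (SD, n = 5) and 5.81 ± 1.81 CPM with PBS (SD, n = 12). The log2 fold change of Cry1 was 0.01 with a 95% interval from −0.35 to 0.38 (adjusted p = 0.959). On total counts alone, Per1 (−0.19, adjusted p = 0.378) and Cry2 (−0.17, adjusted p = 0.208) were also no longer called.

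Of the REV-ERB genes, Nr1d2 was lower and Nr1d1 was not called. Nr1d2 gave the smallest p of the members and was tight in WT, at 158.7, 150.5, 144.6, 161.4 and 156.4 CPM. With PBS it ranged from 43.6 to 95.1 CPM (median 59.7), with no overlap. Nr1d2 was 2.45-fold lower (log2 fold change −1.29, standard error 0.17, adjusted p = 1.2e-07). Nr1d1 was 95.3 ± 26.4 CPM in WT (SD, n = 5) and 80.6 ± 25.3 CPM with PBS (SD, n = 12). Nr1d1 had a log2 fold change of −0.24 with a 95% interval from −0.62 to 0.14 (adjusted p = 0.258). The output activator Dbp read 197.8, 135.8, 120.6, 113.6 and 120.3 CPM in WT and 16.5 to 101.5 CPM (median 45.8) with PBS. These groups did not overlap either, and Dbp was 2.65-fold lower (log2 fold change −1.41, standard error 0.40, adjusted p = 0.0022).

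**Figure D1:**
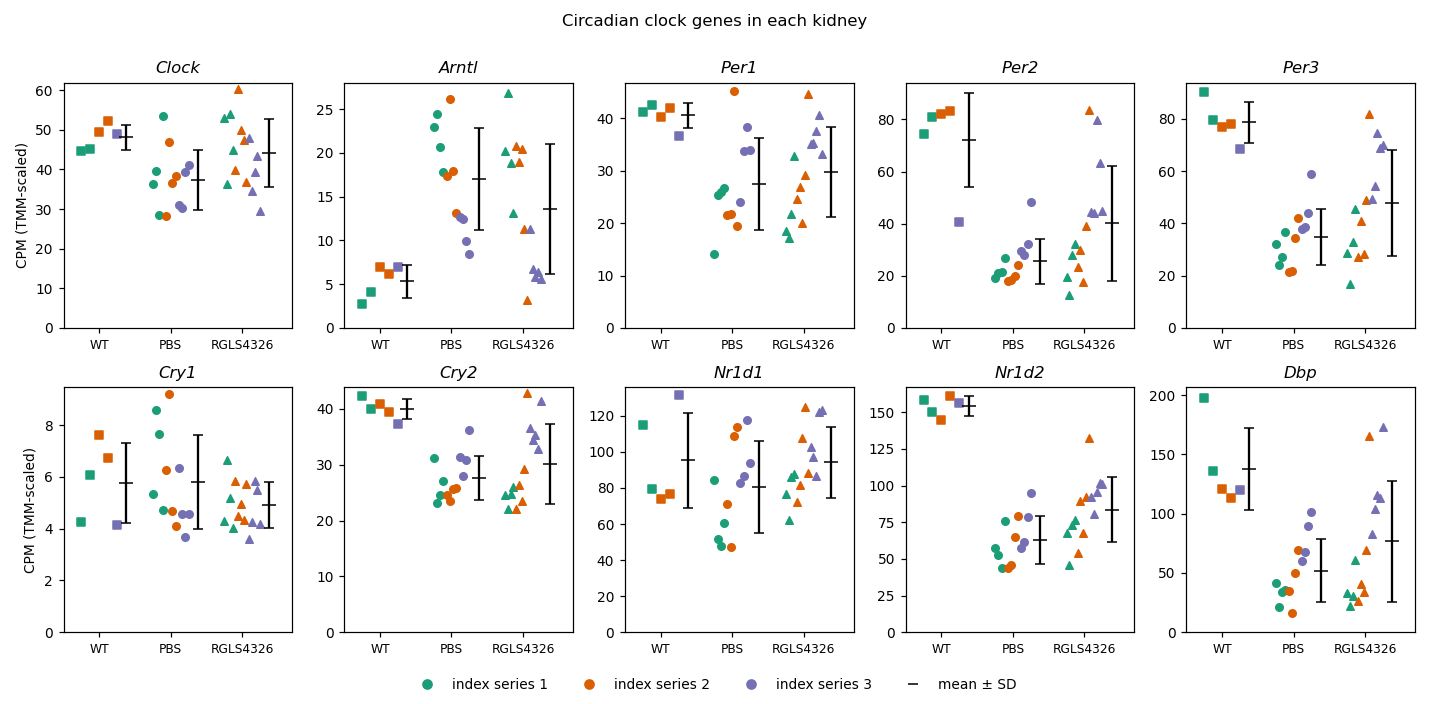
CPM of each of the 10 clock genes (y axes, from 0) in every kidney by group (x axes; WT n = 5, PBS n = 12, RGLS4326 n = 14), colored by index series, with the mean ± SD in black. Groups do not overlap between WT and PBS for Arntl, Per3, Cry2, Nr1d2 and Dbp, and RGLS4326 values spread from the PBS range into the WT range for most members.

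In all, WT and PBS values did not overlap for 5 of 10 members, against 42.2% of all genes. The count of 8 called members stayed at 8 when each of the 31 mice was left out in turn. Within index series 1, 2 and 3, the log2 fold change of Nr1d2 was −1.43 (adjusted p = 0.00069), −1.38 (0.0078) and −1.08 (0.0057). Arntl was 2.65 (adjusted p = 0.00022), 1.53 (0.0517) and 0.67 (0.172) in the same order, and Dbp was −2.34 (0.00064), −1.45 (0.0899) and −0.57 (0.190). Per2 was −1.80 (0.00078), −2.03 (0.0081) and −0.22 (0.655), Per3 was −1.51 (0.0021), −1.36 (0.0184) and −0.59 (0.0841), and Cry2 was −0.64 (0.0018), −0.67 (0.0251) and −0.22 (0.248). Per1 was −0.86 (0.0228), −0.59 (0.174) and −0.15 (0.571). Clock was called in no series, at −0.19 (adjusted p = 0.475), −0.42 (0.113) and −0.45 (0.153). Series 3 holds a single WT mouse, WT mouse 5, so its p-values take their spread from the PBS and RGLS4326 mice and assume that WT varies alike, and there only Nr1d2 was called. With index series as a covariate over all mice, the same 8 members were called.

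Cell type markers moved with this comparison, and their part in the result was not tested. Proximal tubule markers were lower in 9 of 9, with summed levels of 55580 to 69660 CPM in WT and 20100 to 41400 CPM with PBS. Of the distal convoluted tubule markers, Pvalb (−3.83) and Slc12a3 (−0.68) were both lower. Higher in PBS were 5 of 5 collecting duct, 4 of 4 fibroblast, 4 of 4 macrophage, 4 of 4 T and B cell and 3 of 3 injured tubule markers. Of 3 thick ascending limb markers, Cldn16 (0.39) was higher, Slc12a1 (−0.53) lower and Umod not called. Of 3 endothelial markers Kdr (−1.05) was lower, and neither of 2 podocyte markers was called. The share called over all genes was 74.3% in this comparison. The summed injured tubule markers were 5.96 to 25.8 CPM in WT and 263 to 1252 CPM with PBS. Adrenal markers, of which Cyp11b1 and Cyp11a1 did not pass the filter, summed to 1.13 to 1.97 CPM over all mice. The 3 liver markers were lower in PBS, at 7.80 to 59.2 CPM in sum against 20.6 to 217 CPM in WT, but without WT mouse 5 Alb (−0.66, adjusted p = 0.378) and Apoa2 (−0.92, adjusted p = 0.263) were not called.

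The comparison of RGLS4326 with PBS asks what the anti-miR-17 oligonucleotide did to these genes in polycystic kidney. Nr1d2 was higher with RGLS4326 and was the single member of 10 with an adjusted p under 0.05, against 15.8% of all genes (9.15% higher, 6.66% lower). Before adjustment 4 members, Nr1d2, Per2, Clock and Per3, had a p under 0.05, against 36.8% of all genes. The log2 fold change was above 0 for 8 of 10 members, Arntl and Cry1 being the exceptions, and for 48.9% of all genes. The median was 0.23 over the members and −0.004 over all genes. No member had an adjusted p under 0.05 together with an absolute log2 fold change over 0.5, a combination met by 2.15% of all genes. All 10 members overlapped between the groups, as did every gene tested.

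Nr1d2 ranged from 43.6 to 95.1 CPM (median 59.7) with PBS and from 46.2 to 132.3 CPM (median 85.1) with RGLS4326. The highest value was that of RGLS4326-treated mouse 9, and the other 13 treated mice lay at or below 101.8 CPM. Nr1d2 was 1.33-fold higher (log2 fold change 0.41, standard error 0.13, adjusted p = 0.0384). The call was lost without any one of PBS mice 2, 3, 5, 6, 9 or 10 or RGLS4326 mice 6, 8, 9, 10 or 13, with adjusted p between 0.0131 and 0.0764 over all mice left out. Without mouse 9 the log2 fold change was 0.34 (adjusted p = 0.0688), and in a fit of the PBS and RGLS4326 mice alone it was 0.40 (adjusted p = 0.059). Within series 1, 2 and 3 it was 0.20 (adjusted p = 1), 0.58 (0.248) and 0.37 (0.216).

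Per2 came next, at 17.98 to 48.3 CPM (median 23.0) with PBS and 12.6 to 83.8 CPM (median 35.8) with RGLS4326. Its log2 fold change was 0.65 (standard error 0.24, adjusted p = 0.0556), and 0.52 (adjusted p = 0.111) without mouse 9. Per2 was called without PBS mouse 4 or 12 or RGLS4326 mouse 1, 2, 5 or 7, with adjusted p down to 0.0211. Per3 was 34.9 ± 10.7 CPM (SD, n = 12) in PBS-treated and 47.7 ± 20.1 CPM (SD, n = 14) in RGLS4326-treated mice (log2 fold change 0.45, standard error 0.19, adjusted p = 0.0957), and was called without PBS mouse 12 or RGLS4326 mouse 2, with adjusted p down to 0.0331. Per1 stood at 0.11 with a 95% interval from −0.19 to 0.41 (adjusted p = 0.617). For Per2, the values within series 1, 2 and 3 were 0.06, 0.95 and 0.68, and for Per3 they were 0.05, 0.60 and 0.50. Without mouse 9, which belongs to series 2, the values in that series were 0.45 for Per2 and 0.28 for Per3.

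Clock and Cry2 are the members whose longest annotated 3′UTR held the seed match GCACTTT. Other forms of seed match were not searched. Clock ranged from 28.2 to 53.4 CPM (median 37.5) with PBS and from 29.4 to 60.3 CPM (median 44.2) with RGLS4326. Most of each range was shared, and the 4 highest values included 3 treated mice. The log2 fold change of Clock was 0.24 (standard error 0.10), with p = 0.0251 before adjustment over all genes and adjusted p = 0.0900 in edgeR's quasi-likelihood test. Clock was called when PBS mouse 4 or RGLS4326 mouse 14 was left out, with adjusted p between 0.0281 and 0.166 over all mice left out, and its estimate was 0.26, 0.32 and 0.13 within series 1, 2 and 3. Cry2, with 1 match, was 27.7 ± 3.96 CPM in PBS-treated mice (SD, n = 12) and 30.1 ± 7.08 CPM in treated mice (SD, n = 14). Its log2 fold change was 0.12 with a 95% interval from −0.07 to 0.31 (adjusted p = 0.379).

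The remaining members were less certain. Dbp ranged from 16.5 to 101.5 CPM (median 45.8) with PBS and from 22.4 to 173.4 CPM (median 65.3) with RGLS4326. The log2 fold change of Dbp was 0.56 with a standard error of 0.31 (adjusted p = 0.190). Arntl ranged from 8.44 to 26.2 CPM (median 17.6) with PBS and from 3.22 to 26.8 CPM (median 12.2) with RGLS4326. Its log2 fold change was −0.32 with a 95% interval from −0.82 to 0.19 (adjusted p = 0.367). Nr1d1 stood at 0.23 (interval −0.06 to 0.51, adjusted p = 0.256) and Cry1 at −0.24 (interval −0.50 to 0.03, adjusted p = 0.202). Marker genes moved here too, with 3 of 9 proximal tubule markers higher and 4 of 5 collecting duct markers lower. Without mouse 9 these were 1 and 4, and over all mice left out in turn 0 to 8 proximal tubule markers were higher and 3 to 4 collecting duct markers lower. Of the 3 liver markers, Alb (1.48) and Apoa2 (1.65) were higher, the summed level running from 7.61 to 420.2 CPM with RGLS4326, and Pvalb (1.27) was higher among the 2 distal convoluted tubule markers. Without RGLS4326 mouse 9 none of these 3 was called, at 0.81 for Alb (adjusted p = 0.161), 0.85 for Apoa2 (adjusted p = 0.152) and 0.42 for Pvalb (adjusted p = 0.151). Proximal tubule markers summed to 29980 to 53260 CPM with RGLS4326, and the part of these markers in the clock gene values was not tested.

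**Figure D2:**
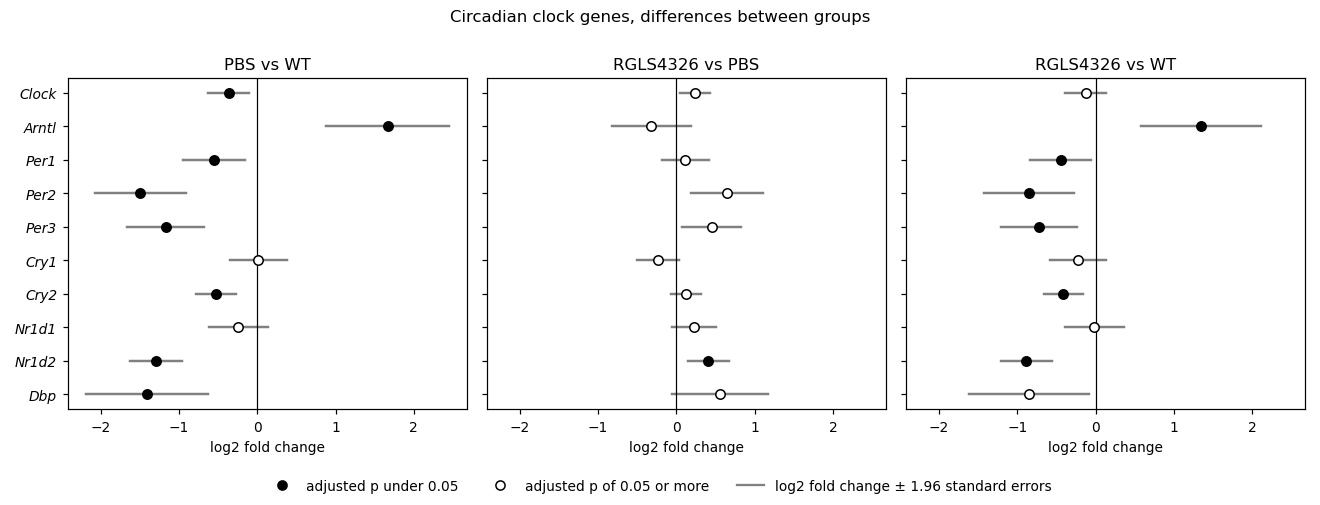
Log2 fold changes (x axes) of the 10 clock genes (y axis) in the 3 comparisons, with bars for the 95% interval and filled points for an adjusted p under 0.05. Arntl is the one member above 0 by a wide margin in both comparisons with WT, at 1.66 and 1.34, and in RGLS4326 against PBS the filled point is Nr1d2 at 0.41.

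Set against WT, RGLS4326-treated kidneys had 6 of 10 members called, against 64.9% of all genes (1 higher against 32.5%, 5 lower against 32.4%), and the log2 fold change was above 0 for 1 member and 50.4% of all genes. This comparison shares its treated mice with the one above and its WT mice with the first. Arntl was higher by 1.34 ± 0.39 on the log2 scale (standard error in the fit, adjusted p = 0.0035), and Nr1d2 (−0.88), Per2 (−0.85), Per3 (−0.72), Per1 (−0.45) and Cry2 (−0.41) were lower, with adjusted p between 4.5e-05 for Nr1d2 and 0.0487 for Per1. Per1 was not called with DESeq2 size factors (adjusted p = 0.0513), upper-quartile scaling (0.110) or no filter on low counts (0.0572), nor in 19 of the 31 fits with 1 mouse left out. Dbp was at −0.85 (standard error 0.39, adjusted p = 0.0578), and was called without PBS mouse 6 or RGLS4326 mouse 9, 12, 13 or 14, at −0.98 (adjusted p = 0.0239) without mouse 9. Clock was at −0.13, Cry1 at −0.23 and Nr1d1 at −0.02, none of them called. Nr1d2 was the only member whose groups did not overlap, against 14.8% of all genes. On total counts alone, Arntl and Nr1d2 were called and Per2 (adjusted p = 0.0566), Per3 (0.0666), Cry2 (0.224) and Per1 (0.361) were not. Cell type markers moved here too, with 9 of 9 proximal tubule and 2 of 2 distal convoluted tubule markers lower. Higher were 5 of 5 collecting duct, 4 of 4 fibroblast, 4 of 4 macrophage, 4 of 4 T and B cell and 3 of 3 injured tubule markers. None of 3 thick ascending limb or 2 podocyte markers was called. The part of markers in this comparison was not tested.

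By index series, 7 members were called with RGLS4326 against WT in series 1 (47.3% of all genes), with Arntl at 2.53 (adjusted p = 0.00028) and Per2 at −1.75 (adjusted p = 0.001). In series 2 edgeR called 0 (2.58% of all genes), with Arntl at 1.21 (adjusted p = 0.167), Per2 at −1.07 (adjusted p = 0.126) and Nr1d2 at −0.80 (adjusted p = 0.109), and 3 members had an unadjusted p under 0.05, as had 31.8% of all genes. In series 3, where the single WT mouse is again assumed to vary like the treated ones, Nr1d2 was called (18.1% of all genes), and Arntl was at 0.06 (adjusted p = 0.921) and Per2 at 0.47 (adjusted p = 0.371).

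All 10 clock genes varied more from mouse to mouse than the median gene with PBS and with RGLS4326, and 6 of 10 did in WT. Among genes of at least 5 CPM, the SD of log2(CPM + 1) for Dbp was 0.78 with PBS and 0.99 with RGLS4326, at the 99.7th percentile in both groups, where the median gene had 0.16 and 0.15. Arntl reached 0.49 with PBS (97.9th percentile) and 0.84 with RGLS4326 (99.5th), and Per2 reached 0.78 with RGLS4326 (99.2nd). In WT, Arntl (0.48) and Per2 (0.43) were also wide, whereas Nr1d2 (0.063), Cry2 (0.065), Per1 (0.083) and Clock (0.092) lay below the WT median of 0.097.

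This spread was also set against index series. In a model of the 26 Pcy/CD1 mice with treatment as a term, chosen after seeing the data, series 3 differed from series 1 at an unadjusted p under 0.05 for 8 of 10 members, against 4.62% of 14687 genes. No gene passed the adjustment over all genes in this contrast or in the other 2 series contrasts. The members correlated with one another over mice, so these 8 are not separate pieces of evidence. Arntl was lower in series 3 at a log2 difference of −1.23 (standard error 0.24, adjusted p = 0.125) and Dbp was higher at 1.48 (standard error 0.31, adjusted p = 0.191). Per2 (0.94), Per3 (0.81), Per1 (0.60), Nr1d1 (0.54), Nr1d2 (0.43) and Cry2 (0.42) were higher as well, and Clock (−0.22) and Cry1 (−0.27) were the members without an unadjusted p under 0.05. Series 3 against 2 gave 5 members (6.9% of all genes) and series 2 against 1 gave 1, Nr1d1 (7.58% of all genes).

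**Figure D3:**
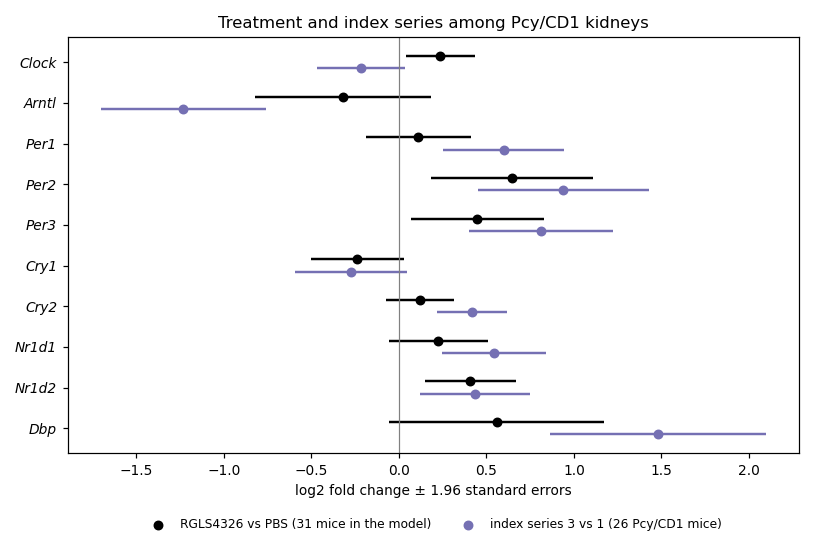
Log2 differences (x axis, with bars for the 95% interval) of the 10 clock genes (y axis) for RGLS4326 against PBS in black and for index series 3 against series 1 among the 26 Pcy/CD1 mice in purple. The series difference is larger in size than the treatment difference for Arntl (−1.23 and −0.32) and Dbp (1.48 and 0.56).

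In series 1, 2 and 3, Arntl averaged 21.5 ± 2.90, 18.6 ± 5.47 and 10.9 ± 2.06 CPM with PBS (SD, n = 4 each). With RGLS4326 it averaged 19.8 ± 5.62, 14.9 ± 7.59 and 7.16 ± 2.38 CPM (SD, n = 4, 5 and 5). Dbp averaged 33.1 ± 8.26, 42.6 ± 22.5 and 79.8 ± 19.0 CPM with PBS and 36.8 ± 16.9, 67.3 ± 57.1 and 117.7 ± 33.8 CPM with RGLS4326, over the same mice. Series 3 thus held the lowest Arntl and highest Dbp means in both Pcy/CD1 groups. In WT the pattern was not the same, with Arntl at 3.41 ± 0.98 (SD, n = 2), 6.52 ± 0.570 (SD, n = 2) and 6.925 CPM (1 mouse) in series 1, 2 and 3. In a test of the treatment by series interaction, no gene was called (274 of 14687 genes had an unadjusted p under 0.05) and no member had an unadjusted p under 0.05.

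Arntl and Dbp lay along one line over all kidneys. The log2 difference of Dbp over Arntl was 4.48 ± 0.79 in WT (SD, n = 5), 1.45 ± 1.25 under PBS (SD, n = 12) and 2.32 ± 1.82 under RGLS4326 (SD, n = 14). The WT mice spanned 3.94 to 5.74, the PBS mice −0.64 to 3.44 and the RGLS4326 mice −0.25 to 5.30. No PBS-treated mouse reached the WT range, whereas RGLS4326-treated mice did, with mouse 9 highest at 5.30. Within series 1, 2 and 3 the PBS means were 0.57, 1.02 and 2.75 and the RGLS4326 means 0.81, 1.99 and 3.86.

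**Figure D4:**
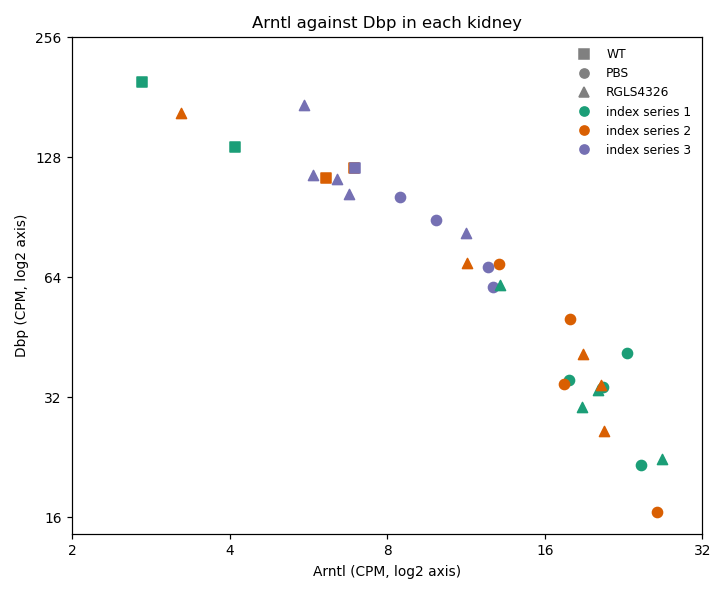
CPM of Arntl (x axis) against CPM of Dbp (y axis), both on log2 axes, for each of 31 kidneys, with marker shape for group and color for index series. WT kidneys sit at the upper left, with Arntl at or below 6.925 CPM, and PBS kidneys at the lower right, with Arntl at or above 8.44 CPM. RGLS4326 kidneys extend over most of the line.

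Over mice within a group, Arntl and Dbp gave Pearson's r = −0.936 with PBS (n = 12, Spearman's rho = −0.895, adjusted permutation p = 0.00029 for r and 0.00076 for rho) and −0.971 with RGLS4326 (n = 14, rho = −0.965, adjusted permutation p = 0.00011 and 5.6e-05). The relation held without the 2 mice farthest from the median of Arntl, with r = −0.896 and −0.971, and after centering within index series, with r = −0.870 and −0.951. Correlations were computed for all 45 member pairs in each group, 90 in all, on log2(CPM + 1) with two-sided permutation tests of 100000 resamples and Benjamini-Hochberg adjustment over the 90. With PBS 24 pairs passed, 14 positive and 10 negative, and with RGLS4326 24 pairs passed, 18 positive and 6 negative. By Spearman's rho 22 and 24 pairs passed, after centering within index series 17 and 21, and without the 2 farthest mice 9 and 21. No correlation was computed over the 5 WT mice.

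Arntl ran against the Per genes, Cry2 and Nr1d2 over mice within a group. With RGLS4326, Arntl correlated with Per3 at r = −0.943 (rho −0.991), with Cry2 at −0.937 (rho −0.956), with Per2 at −0.929 (rho −0.965), with Per1 at −0.906 (rho −0.908) and with Nr1d2 at −0.853 (rho −0.938), and all 5 passed. With PBS the values were −0.861 for Per3 (rho −0.825), −0.730 for Cry2 (rho −0.727), −0.870 for Per2 (rho −0.797) and −0.740 for Nr1d2 (rho −0.636), which passed, and −0.480 for Per1, which did not. For Nr1d2 the PBS rho did not pass (adjusted permutation p = 0.0557), and for Cry2 the PBS value did not pass after centering within index series (r = −0.467, adjusted permutation p = 0.156). Arntl and Nr1d1 passed with PBS (r = −0.720, rho −0.699) but not after centering within series (adjusted permutation p = 0.174) or without the 2 farthest mice (0.0822), and with RGLS4326 rho passed (−0.609, adjusted permutation p = 0.0478) and r did not (−0.530, adjusted permutation p = 0.0889). Without the 2 farthest mice none of the 4 PBS values for Per2, Per3, Cry2 and Nr1d2 passed, at −0.747 for Per2 and for Per3 (adjusted permutation p = 0.0501 each), −0.471 for Cry2 and −0.516 for Nr1d2. Cry1 correlated with Arntl at 0.743 and with Dbp at −0.854 in PBS and passed, and at 0.063 and −0.246 in RGLS4326 and did not, and whether the groups differ in this was not tested. Both PBS values of Cry1 were lost without the 2 farthest mice, at 0.692 with Arntl (adjusted permutation p = 0.0769) and −0.674 with Dbp (adjusted permutation p = 0.0785). Clock passed with no other member in either group, its largest r being 0.563 with Arntl in RGLS4326.

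**Figure D5:**
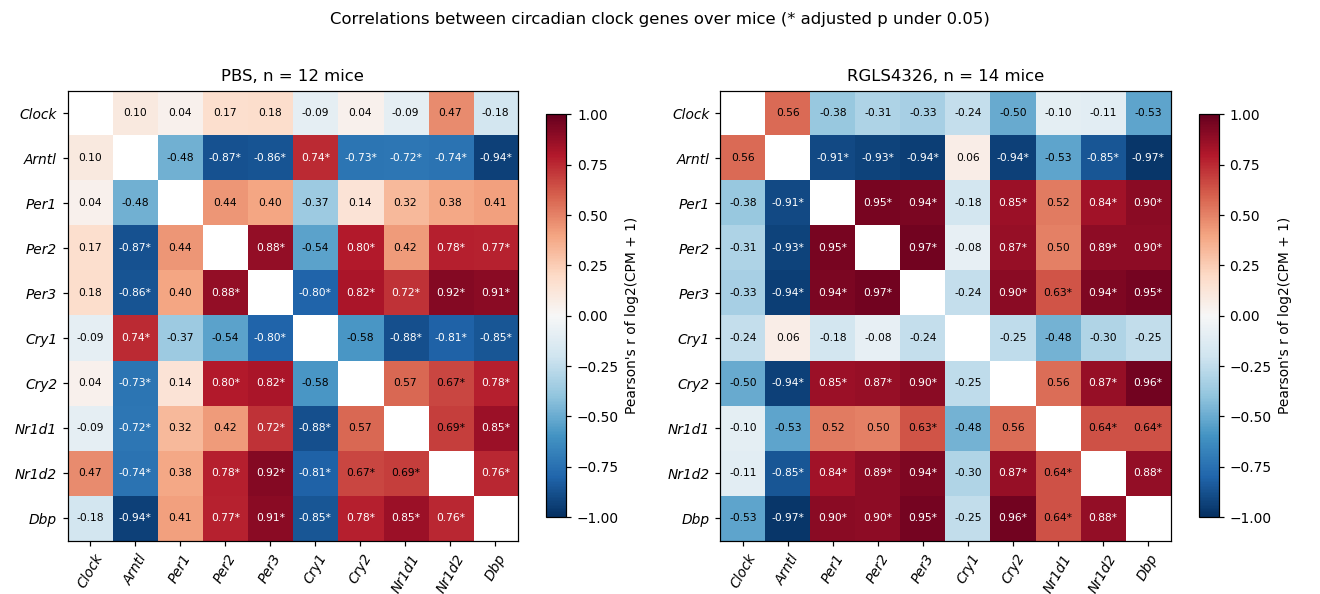
Pearson's r of log2(CPM + 1) for each pair of clock genes over 12 PBS kidneys (left) and 14 RGLS4326 kidneys (right), red positive and blue negative, with an asterisk for an adjusted p under 0.05. Arntl is negative against Per2, Per3, Cry2, Nr1d2 and Dbp in both groups, and the row of Clock holds no asterisk.

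Injury was followed by Lcn2, for which 20 relations were computed. With PBS, Clock was lower where Lcn2 was higher (r = −0.807, adjusted permutation p = 0.0292, n = 12), but rho was −0.629 (adjusted p = 0.108) and r fell to −0.716 without the 2 extreme mice, where it no longer passed (adjusted p = 0.337). With RGLS4326, Nr1d2 was lower where Lcn2 was higher (r = −0.707, adjusted permutation p = 0.0292, rho −0.789, adjusted p = 0.024, n = 14), and r was −0.613 (adjusted p = 0.337) without those 2. Before adjustment, these values without the 2 mice had permutation p = 0.0196 for Clock and p = 0.0337 for Nr1d2. After centering within index series, Clock in PBS had r = −0.814 (adjusted p = 0.0523) and Nr1d2 had r = −0.814 (adjusted p = 0.037) in PBS and −0.800 (adjusted p = 0.0186) in RGLS4326. Without centering, Nr1d2 in PBS did not pass, at r = −0.479 (adjusted permutation p = 0.254) and rho −0.51 (adjusted permutation p = 0.187). Without the 2 extreme mice its r in PBS was −0.425 (adjusted permutation p = 0.627). Arntl and Dbp did not pass against Lcn2 in either group.

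Genes most like each member were sought among 11513 genes of at least 5 CPM other than the members themselves, by Spearman's rho over the 31 mice after centering on group means, as a description. Arntl was most like Npas2 (rho 0.961), the paralog of Clock that also pairs with ARNTL, then Slc16a1 (0.903), which encodes a monocarboxylate transporter, and Ppard (0.888), and least like Gm129 (−0.927), the older name of the clock repressor Ciart. Dbp was most like Gm129 (0.955), then Tef (0.862), which encodes a sister activator of DBP, and Usp2 (0.818). Per3 and Cry2 were most like Gm129 (0.931 and 0.828) and Nr1d2 most like Tef (0.921). Per1 and Per2 were both most like Tsc22d3 (0.881 and 0.862), a glucocorticoid-induced gene. Clock was most like Ccdc50 (0.917), Cdc27 (0.913) and Tnks2 (0.913), none of which is a clock gene in the lists used here. Cry1 and Nr1d1 had weaker partners, Txlna (0.723) and Mira (0.755). These 31 mice differ in index series and depth, and the part of these in such values was not tested.

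The accessory clock list of 17 genes gives the rest of the loop. With PBS against WT, 6 were higher, 9 lower and 2 not called, where 37.7% of all genes were higher and 36.6% lower. Npas2 was 3.98 ± 1.55 CPM in WT (SD, n = 5) and 18.6 ± 6.43 CPM with PBS (SD, n = 12), a 4.66-fold difference (log2 fold change 2.22, standard error 0.44, adjusted p = 4.7e-05) in the direction of Arntl. Nfil3, which encodes a repressor at D-boxes, was 2.82-fold higher (log2 fold change 1.496, standard error 0.37, adjusted p = 0.00066). Those lower included the D-box activators Hlf (−1.34) and Tef (−0.99), the repressor Gm129 (−1.97) and the ROR genes Rora (−1.54) and Rorb (−1.13). Rorb was near the floor, at 6 to 15 counts per mouse in WT and 1 to 16 with PBS, and its groups overlapped. The casein kinases Csnk1e (0.95) and Csnk1d (0.17), which phosphorylate PER proteins, were higher, as were Timeless (1.04) and Arntl2 (0.41), and the ubiquitin ligase genes Fbxl21 (−1.38) and Btrc (−0.54) were lower. Bhlhe40 (−0.07) and Bhlhe41 (−0.18) were not called.

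With RGLS4326 against PBS, 1 of these 17 was higher and 3 lower, where 9.15% of all genes were higher and 6.66% lower. Hlf, a D-box activator, was 79.3 ± 22.7 CPM under PBS (SD, n = 12) and 113.2 ± 34.8 CPM under RGLS4326 (SD, n = 14), 1.43-fold higher (log2 fold change 0.51, standard error 0.15, adjusted p = 0.0288). Csnk1e (−0.30, adjusted p = 0.0278), Csnk1d (−0.11, adjusted p = 0.0214) and Timeless (−0.28, adjusted p = 0.0351) were lower. With each of the 31 mice left out in turn, the call was lost in 8 fits for Hlf, 5 for Csnk1e, 1 for Csnk1d and 11 for Timeless. Without RGLS4326 mouse 9, 0 of the 17 were higher by edgeR and 2 lower. Npas2 was at −0.34 (adjusted p = 0.369), Gm129 at 0.86 (adjusted p = 0.0834) and Tef at 0.31 (adjusted p = 0.0845).

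Among 13 clock output genes, 5 were higher and 7 lower with PBS against WT, and 5 were higher and 2 lower with RGLS4326 against PBS. These counts, and those of the lists that follow, stand beside 74.3% of all genes called in the first comparison and 15.8% in the second. Without RGLS4326 mouse 9, 2 of the 13 were higher in the second comparison, where Nampt, Por and Wee1 were no longer called, and the number was 1 to 7 over all mice left out in turn. The 3 with the smallest p in the first comparison were Avpr2 (1.92) and Aqp2 (2.30), the vasopressin receptor and water channel of the collecting duct, and Nampt (−0.86), which makes NAD precursors. In the second they were Avpr2 (−0.39), Alas1 (0.66, rate-limiting in heme synthesis) and Aqp2 (−0.56, not called in 2 of the 31 fits with 1 mouse left out). Avpr2 and Aqp2 are also on the collecting duct marker list, of which all 5 were higher in the first comparison and 4 lower in the second. Of 6 glucocorticoid-induced genes, 5 were lower and 1 higher with PBS against WT, and 3 were higher with RGLS4326 against PBS. Those 3 were Fkbp5 (0.63, adjusted p = 0.0023), Zbtb16 (0.89, adjusted p = 0.0143) and Klf9 (0.44, adjusted p = 0.0216). Fkbp5, which encodes a co-chaperone of the glucocorticoid receptor, was 134.7 ± 22.2 CPM in WT (SD, n = 5), 59.0 ± 9.86 CPM under PBS (SD, n = 12) and 91.1 ± 20.8 CPM under RGLS4326 (SD, n = 14). Of 8 immediate early genes, which respond within minutes to handling and other stimuli, 5 were higher with PBS against WT, 3 to 7 with a mouse left out, the smallest p-values being those of Atf3 (2.56), Junb (1.71) and Ier2 (1.31), and 0 were called with RGLS4326 against PBS by edgeR, where Dusp1 (0.54) was the one with an unadjusted p under 0.05 (p = 0.0192 in that quasi-likelihood test).

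Exons of 4 members overlap a gene on the opposite strand in GRCm38, over 29.3% of exon length for Dbp (Sphk2), 9.7% for Nr1d1 (Thra), 3.4% for Cry2 (D930015M05Rik) and 1.1% for Arntl (Gm45355). Libraries were stranded, but the strand setting of the counting is not given in the sources used here, and how reads in these stretches were assigned was not tested.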

How the data were processed

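Kidney RNA of 31 mice was sequenced as stranded mRNA libraries. The authors trimmed paired reads with Trim Galore, aligned them with STAR to GRCm38 and counted uniquely mapped reads per gene with HTSeq 0.6.1 (submitters' processing notes; FastQC 0.11.2, SAMtools 1.1 and Picard 1.119 are also named). The deposited values are raw counts per gene and mouse, with no normalization. Reads on no feature (10.35% to 12.53%) or on several (0.381% to 0.503%) were kept out of library sizes. The lowest members held few reads, Arntl 46 to 615 and Cry1 52 to 216 counts per mouse. The part of depth in their precision was not tested.

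Genes passing filterByExpr were fitted with edgeR 4.0.16 in R 4.3.3 (TMM, glmQLFit and glmQLFTest, 1 coefficient per group, all 31 mice, no covariates) with Benjamini-Hochberg adjustment over all genes, and called at an adjusted p under 0.05. Standard errors were taken from each log2 fold change and its F statistic and are approximate, as are the 95% intervals made from them with a normal distribution. Correlations used log2(CPM + 1), and the procedure was tested on simulated counts. Groups came from the sample labels. Same-numbered mice belong to different groups and were not treated as pairs. Over 12 numbers the mean correlation of deviations was −0.11, and 4 exceeded 0.1, which cannot exclude a pairing. The 10 members, all lists and alternatives were chosen with earlier results of these data known. All members and accessory genes are named or counted (some accessory genes are counted only, and their values are not reported here), with the 3 smallest p-values of each other clock-related list and, of the 3 genes most and least alike found per member, at least the most alike. Each numbered label was taken as a separate mouse. The study reports fewer kidneys per group in its RNA-seq of this model than the libraries used here, and the reason is not known. Promoter and microRNA sequences are from RefSeq, 3′UTRs from the GENCODE annotation of GRCm38.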

Additional observations from a re-analysis of the deposited data

Results flagged for a closer look

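Among the 10 clock genes in the 5 WT mice, 2 had a mouse far from the other 4. Per2 in WT mouse 5 was 40.59 CPM, where the other WT mice lay between 74.4 and 83.1 CPM (gap over range 0.795). Dbp in WT mouse 1 was 197.8 CPM, where the others lay between 113.6 and 135.8 CPM (gap over range 0.736). Chance sets a sample apart in about 1 in 20 groups. Without WT mouse 5 the log2 fold change of Per2 with PBS against WT was −1.64, and without WT mouse 1 that of Dbp was −1.24 (adjusted p = 0.0119), both still called.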

How the results depend on the processing

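With PBS against WT, 8 members were called, and 7 to 9 under DESeq2, its size factors, upper-quartile scaling, no filter, index series as a covariate, the 2 groups alone, the replicate block and the threshold on size. On total counts, an alternative chosen after seeing the data, 5 were called (78.3% of all genes), within series 2 there were 4 (45.5%) and within series 3 there was 1 (38.1%). With RGLS4326 against PBS, the single call became 0 under the threshold on size, the 2 groups alone, the replicate block and each series, and 2 with DESeq2 (Nr1d2 and Per2). Over all genes in this comparison, 2402 were called, against 303 with the replicate block, 1480 with the 2 groups alone, 4683 on total counts, 3214 with DESeq2, 0 within each series (280, 2981 and 3045 in series 1, 2 and 3 at an unadjusted p under 0.05, with 0, 2 and 5 members) and 618 to 3999 with a mouse left out. With RGLS4326 against WT, 6 members became 2 on total counts (1 higher and 1 lower, against 1 and 5; 69.3% of all genes), 0 within series 2 (2.58%) and 1 within series 3 (18.1%). Leaving out each mouse gave 8 to 8, 0 to 3 and 5 to 7 members in the 3 comparisons. Replicate numbers were not treated as pairs in the main fit. Of 12 numbers, 1 correlated best with its own number, which cannot exclude a pairing. The replicate block gave 9, 0 and 8 members (72.8%, 2.0% and 63.0% of all genes), with Nr1d2 at an adjusted p of 0.0656 for RGLS4326 against PBS. The cause of these changes was not tested, except that series hold fewer mice.

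Directions that turned were all of values not called, apart from Per1 and Per2 with RGLS4326 against WT. On total counts Nr1d1 was 0.115 (PBS against WT) and 0.231 (RGLS4326 against WT), Per1 −0.0097 (RGLS4326 against PBS), and Clock 0.124 and Cry1 0.030 (RGLS4326 against WT). With upper-quartile scaling Nr1d1 was 0.073 (RGLS4326 against WT). Within series 1, RGLS4326 against PBS gave Per1 −0.036 and Cry2 −0.124, and RGLS4326 against WT gave Clock 0.064. Within series 2, Nr1d1 was 0.192 and Cry1 −0.222 (PBS against WT), and Nr1d1 0.350 (RGLS4326 against WT). Within series 3, RGLS4326 against WT gave Per1 0.0066, Per2 0.467 and Cry1 0.191. With 1 mouse left out, Cry1 ranged from −0.084 to 0.136 (PBS against WT) and Nr1d1 from −0.093 to 0.130 (RGLS4326 against WT). Without the 2 extreme mice, 9 of 24 pair correlations passed with PBS, and 0 relations with Lcn2 in either group.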
